A study of Mus musculus with 4 samples.

Results

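The genes of matrix metalloproteinases (Mmp), of Adamts proteases and of tissue inhibitors of metalloproteinases (Timp) were examined in the dermis of virgin and pregnant mice. All probe sets of the array whose single gene symbol was Mmp, Adamts or Timp1 to Timp4 followed by its number were taken. They were 70 probe sets for 37 genes, 18 Mmp, 15 Adamts and 4 Timp genes, out of 18194 genes with a probe set of a single symbol. RefSeq lists 46 genes of these names, and the 9 without such a probe set were not analysed here.

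Dermal RNA was hybridised to 4 arrays, 1 for each condition, from adult female C57BL/6 mice that the labels give as 10 weeks old. The virgin array held abdominal dermis of virgin mice injected with the vehicle dimethyl sulphoxide (DMSO), the dorsal array held dorsal dermis of pregnant mice injected with DMSO, the abdominal array held abdominal dermis of pregnant mice injected with DMSO, and the PP2 array held abdominal dermis of pregnant mice injected with PP2, an inhibitor of Src family kinases. Injections were intradermal and given 2 times a day for 4 days. Pregnant mice were at 15 days post coitum (dpc) by the sample titles and at 16 dpc by the sample descriptions, and 15 dpc is used as the name. All 4 conditions share the wild-type C57BL/6 background, the injections and the release of dermal cells by collagenases and hyaluronidase before RNA was extracted. The sources used here do not say whether an array pooled several mice. Since each condition has 1 array, no replicate error exists, folds carry no test, and precision is bounded by how few arrays there are.

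Mmps are zinc proteases that cut collagens, proteoglycans and other matrix proteins, and most are secreted as inactive precursors that other proteases activate. Adamts proteases are secreted relatives with thrombospondin repeats, and they cut proteoglycans such as versican, process procollagens or act on microfibrils. Timps bind the active site of these proteases and block it, Timp3 being the one that also inhibits several Adamts proteases. In skin both fibroblasts and keratinocytes are known sources, and the enzymes are best known from wound repair, hair cycling and involution of tissues after pregnancy.

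A signal is the intensity that the MAS5 algorithm gives a probe set, in arbitrary units on a linear scale, and each probe set also has a call of present, marginal or absent on each array. Signals were compared between arrays within 1 probe set only. For a gene with several probe sets, the brightest by mean log2 signal stands for the gene and is called its representative. A gene was counted as higher or lower when that probe set differed over 2-fold and was present on the brighter array, among genes present on at least 1 of the 2 arrays compared. If the probe set was not present on the dimmer array, the fold is a bound, written as at least, against the larger of the probe set's own signal there and the dimmest present signal on that array, which was 10.7 on the virgin, 9.36 on the dorsal, 6.57 on the abdominal and 3.96 on the PP2 array. All 3 comparisons use the abdominal array, so they are not independent of each other. In RNA of mixed released cells, fewer cells of a type, poorer recovery of them and less RNA per cell cannot be told apart.

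The arrays called 58.4% to 59.7% of 45101 probe sets present. All 8 fibroblast markers were present on all 4 arrays, with a summed signal between 115639 and 146686. Markers of other cells were present too: 6 to 8 of 8 keratinocyte markers, 7 or 8 of 8 macrophage markers and 5 of 5 endothelial markers. Of the fat cell list, *Fabp4* and *Adipoq* were present on all 4 arrays, and *Cidec* and *Lep* on none. Of the mammary list, *Krt18* was present on all 4 arrays, *Csn2* on 3 and *Krt8* on 2, while *Wap*, *Csn3* and *Lalba* were present on none. The 9 hair follicle markers stood apart, with a summed signal of 354 on the virgin, 673 on the dorsal, 13778 on the abdominal and 1768 on the PP2 array, and for all 9 the abdominal array exceeded each other array by over 2-fold. The ratio of 3′ to 5′ probe sets of the control transcript Gapdh, which rises as RNA or its copies become shorter, was 2.51 on the virgin, 2.97 on the dorsal, 1.41 on the abdominal and 5.84 on the PP2 array.

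Of the 37 genes, 25 were present on at least 1 array by their representative probe set: 9 of 18 Mmp genes, 12 of 15 Adamts genes and all 4 Timp genes. In 21 genes this was the case on all 4 arrays. The 12 genes without a present call were *Mmp1a*, *Mmp1b*, *Mmp7*, *Mmp8*, *Mmp9*, *Mmp10*, *Mmp12*, *Mmp20*, *Mmp24*, *Adamts16*, *Adamts18* and *Adamts19*, with signals from 0.673 to 199.6. Only *Adamts18* among these 12 had another probe set with a present call, on 3 arrays. That probe set was dim, with 39.9 on the virgin, 45.3 on the dorsal and 17.8 on the abdominal array, and absent at 2.54 on the PP2 array. By it the virgin array was 2.25-fold and the dorsal array 2.55-fold above the abdominal array. The abdominal array was at least 4.48-fold above the PP2 array. The proteins of *Mmp8* and *Mmp9*, a collagenase and a gelatinase, are stored in neutrophils, and 1 to 3 of 7 measured neutrophil markers were present on an array. *Mmp12*, the elastase of macrophages, was absent throughout although macrophage markers were present.

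The Mmp genes were also set in genome order. In the mouse 9 of the 18 Mmp genes lie in one stretch of chromosome 9, in the order *Mmp13*, *Mmp12*, *Mmp1b*, *Mmp3*, *Mmp1a*, *Mmp10*, *Mmp8*, *Mmp20* and *Mmp7*, and all 10 protein-coding genes of that stretch in RefSeq are Mmp genes. Only *Mmp3* on 4 arrays and *Mmp13* on 1 array were present, 2 of 9 against 7 of the 9 Mmp genes elsewhere. The sequences before the starts of these genes are shown because the stretch shares letters that the other members mostly lack. They are the 100 bases before the annotated start, 5′ to 3′ on the strand of the gene, from RefSeq on GRCm38.p6, with matches to TGANTCA, the motif bound by the AP-1 proteins Fos and Jun, and to TATAAA, the TATA box, in capitals. *Adamts1* and *Timp4* are shown as members from other chromosomes.
*Mmp13* (chr9:7272414-7272513, plus strand): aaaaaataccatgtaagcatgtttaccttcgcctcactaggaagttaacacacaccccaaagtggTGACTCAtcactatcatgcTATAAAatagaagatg
*Mmp3* (chr9:7445722-7445821, plus strand): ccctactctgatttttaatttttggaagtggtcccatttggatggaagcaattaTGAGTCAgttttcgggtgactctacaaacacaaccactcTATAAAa
*Mmp1a* (chr9:7464041-7464140, plus strand): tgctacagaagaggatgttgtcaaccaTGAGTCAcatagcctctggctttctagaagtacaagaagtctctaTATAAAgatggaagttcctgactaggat
*Mmp1b* (chr9:7388027-7388126, minus strand): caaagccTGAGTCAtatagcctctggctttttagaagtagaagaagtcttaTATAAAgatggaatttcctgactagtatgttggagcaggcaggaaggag
*Mmp10* (chr9:7502242-7502341, plus strand): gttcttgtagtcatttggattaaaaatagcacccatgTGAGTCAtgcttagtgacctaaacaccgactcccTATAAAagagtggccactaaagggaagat
*Adamts1* (chr16:85803114-85803213, minus strand): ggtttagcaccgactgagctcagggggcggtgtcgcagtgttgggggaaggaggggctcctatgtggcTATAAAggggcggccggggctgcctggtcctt
*Timp4* (chr6:115252206-115252305, minus strand): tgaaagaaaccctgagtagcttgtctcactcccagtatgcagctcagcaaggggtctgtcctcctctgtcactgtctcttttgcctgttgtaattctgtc

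The motifs were searched on both strands in the 250 bases before each start, together with AGGAAG, a motif of Ets factors known as PEA3 in Mmp promoters. Windows of 23 of the 37 genes were searched, 9 of the stretch and 14 others. The AP-1 letters were in 8 of the 9 stretch genes, all but *Mmp8*, and in 0 of the 14 others, while 6.75% of the windows of all genes hold them. The TATA box letters were in 7 of 9 and in 1 of 14, which was *Adamts1*, against 12.4% of all windows. In 7 of 9 stretch genes both stood in the same window, as in 1.21% of all windows. AGGAAG was in 6 of 9 and in 5 of 14, against 29.5% of all windows. A gene was counted if any of its windows held the letters, while the shares over all genes are of windows. *Mmp12* and *Mmp7* have 2 windows each, with the AP-1 letters in 1 of them. The printed sequences of *Mmp1a* and *Mmp1b* are much alike, so neighbouring genes of 1 family need not be independent cases. No match of one motif overlapped a match of another in the windows of the stretch. In *Mmp13* the AP-1 letters begin 35 bases before the start and the TATA box letters 16 bases before it, and in *Mmp3* they begin 46 and 7 bases before it. Such a match is a string of letters and not a measured binding site, and genes of the stretch with and without present calls hold it alike: *Mmp1a* and *Mmp10* have both motifs and were absent on all 4 arrays.

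**Figure D1:**
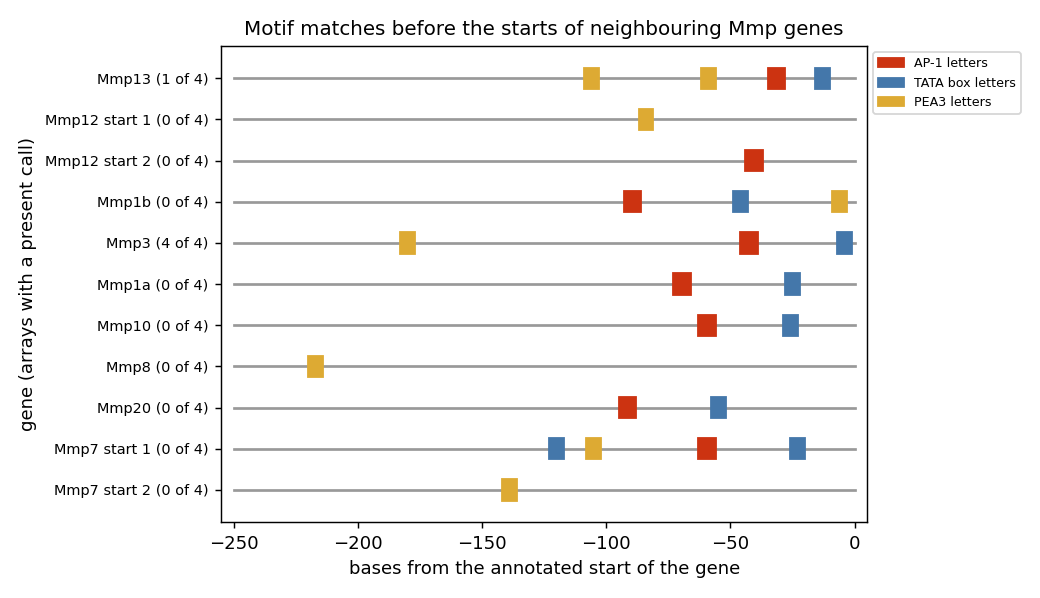
Matches to 3 motifs in the 250 bases before the annotated starts of the 9 Mmp genes of the chromosome 9 stretch, in genome order, with distance from the start in bases on the horizontal axis and the number of arrays with a present call in brackets. AP-1 letters lie before 8 of the 9 genes, and only Mmp3 and Mmp13 were present on an array.

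Among the collagenases, which make the first cut in fibrillar collagen, only *Mmp13* was detected. Its signal was 36.0 on the abdominal array, where it was present, and 3.15 on the virgin, 3.12 on the dorsal and 0.491 on the PP2 array, where it was absent. The abdominal array was thus the single one with a detectable signal, at least 3.37-fold higher than the virgin, at least 3.84-fold higher than the dorsal and at least 9.09-fold higher than the PP2 array. The signal is dim, and with 50 added to all signals *Mmp13* was no longer over 2-fold higher in any of the 3 comparisons. *Mmp13* thus ran in the same direction as the 9 hair follicle markers, and their part in it was not tested.

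Of the gelatinases, which cut denatured collagen and basement membrane, *Mmp2* was well detected. Its signal was 3406 on the virgin, 2926 on the dorsal, 5281 on the abdominal and 4828 on the PP2 array. Both pregnant abdominal arrays were above the others. The abdominal array was 1.55-fold above the virgin, 1.80-fold above the dorsal and 1.09-fold above the PP2 array, and the second *Mmp2* probe set gave 1.52, 2.02 and 1.12.

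Among stromelysins, which cut proteoglycans and glycoproteins and activate collagenases, *Mmp3* had a signal of 1778 on the virgin, 387 on the dorsal, 1789 on the abdominal and 1422 on the PP2 array. The 3 abdominal arrays were close to each other and the dorsal array was low. The abdominal array was 4.63-fold higher than the dorsal array, against 1.01-fold and 1.26-fold higher than the virgin and PP2 arrays. Beside this, 3 of 8 fibroblast markers were over 2-fold higher on the abdominal than on the dorsal array, 4 of 7 macrophage markers were so too, and the summed keratinocyte signal was 65511 against 91685. Their part in the difference was not tested. *Mmp11*, a stromelysin of stromal cells, had 217 on the virgin, 364 on the dorsal, 427 on the abdominal and 259 on the PP2 array. It was 1.97-fold higher on the abdominal than on the virgin array, just under the threshold.

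Of the membrane-type Mmps, which are anchored at the cell surface, 3 of 4 were detected. *Mmp14*, the activator of pro-Mmp2, had a signal of 3407 on the virgin, 4254 on the dorsal, 3318 on the abdominal and 6851 on the PP2 array by its representative probe set. By this probe set the PP2 array was the highest, 2.06-fold above the abdominal array. A second *Mmp14* probe set had 1080.1 on the virgin, 1143 on the dorsal, 1022 on the abdominal and 214 on the PP2 array, 4.77-fold higher on the abdominal than on the PP2 array. Another was dimmer, with 166 on the abdominal and 62.5 with a marginal call on the PP2 array, at least 2.66-fold higher on the abdominal array. The probe sets therefore gave opposite directions for *Mmp14* under PP2, and no direction is drawn for the gene.

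*Mmp16* had a signal of 562 on the virgin, 371 on the dorsal, 147 on the abdominal and 175 on the PP2 array. The abdominal and PP2 arrays were low and the virgin array was high. The virgin array was 3.82-fold and the dorsal array 2.53-fold above the abdominal array, and the PP2 array 1.19-fold. A second probe set gave 2.73-fold for the virgin, 2.20-fold for the dorsal and 1.52-fold for the PP2 array. Another, marginal on the abdominal array, gave at least 2.97-fold, at least 1.83-fold and at least 2.96-fold, so all 3 probe sets with a present call placed the abdominal array lowest while differing in how far the PP2 array lay above it. *Mmp17* had 106 on the virgin, 313 on the dorsal, 160.0 on the abdominal and 210.3 on the PP2 array, the dorsal array being 1.96-fold above the abdominal array. Of the remaining Mmps, *Mmp23* had 554, 351, 479 and 456 and *Mmp19* 112, 67.6, 91.3 and 47.6 on the virgin, dorsal, abdominal and PP2 arrays, without a 2-fold difference from the abdominal array.

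**Figure D2:**
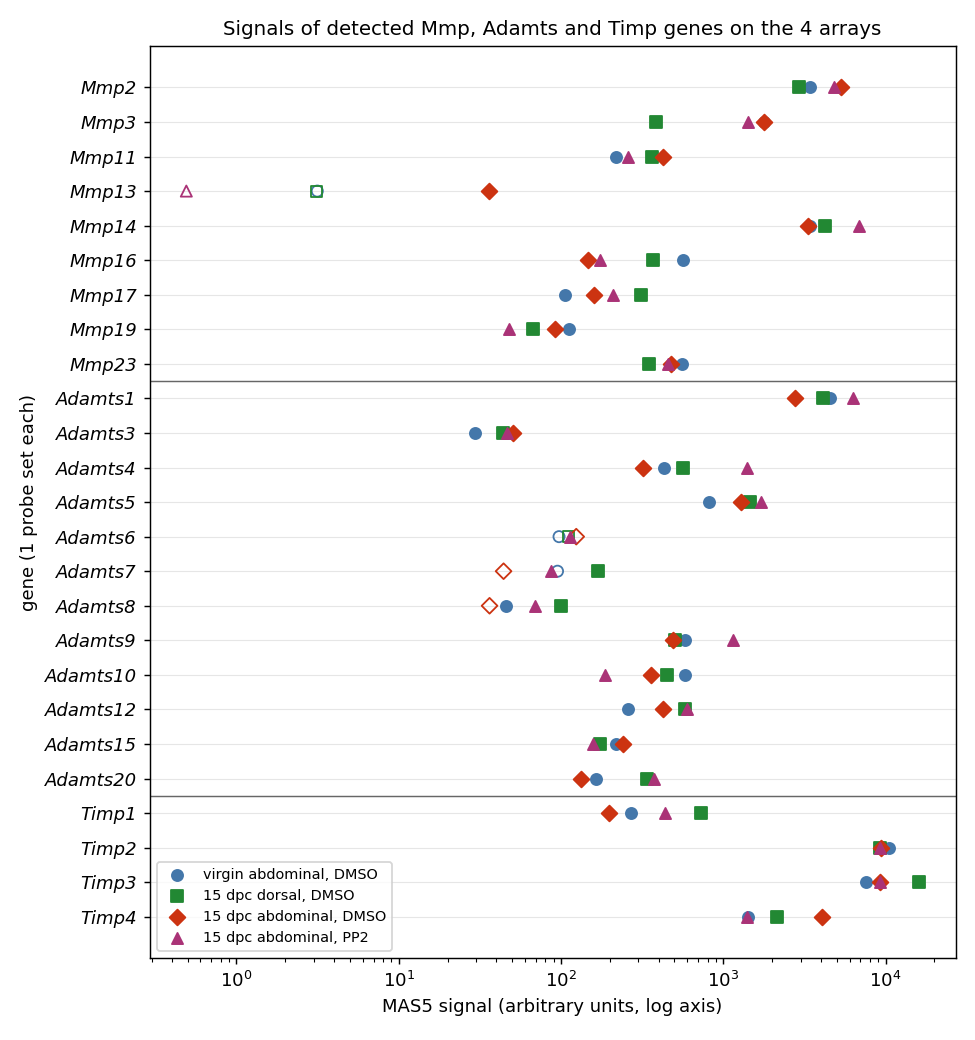
MAS5 signals in arbitrary units on a log axis for the 25 detected genes, 1 representative probe set each, on the virgin, dorsal, abdominal and PP2 arrays, with filled symbols for present calls and open symbols for marginal or absent calls. Mmp13 was present on the abdominal array alone at 36.0, and Mmp3 was lowest on the dorsal array at 387.

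All 7 Adamts proteases known to cut versican or related proteoglycans were detected. *Adamts1* had a signal of 4522 on the virgin, 4128 on the dorsal, 2776 on the abdominal and 6317 on the PP2 array. *Adamts4* had 429 on the virgin, 568 on the dorsal, 322 on the abdominal and 1402 on the PP2 array. In both genes the abdominal array was the lowest and the PP2 array the highest, 2.28-fold above it for *Adamts1* and 4.36-fold for *Adamts4*. The second *Adamts4* probe set gave the same order of these arrays with a smaller fold of 1.96.

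*Adamts9* had a signal of 583 on the virgin, 503 on the dorsal, 488 on the abdominal and 1149 on the PP2 array. By this probe set the 3 DMSO arrays were close together and the PP2 array was 2.35-fold above the abdominal array. A second put the abdominal array 1.47-fold above the virgin and 1.53-fold above the dorsal array, and the PP2 array 1.69-fold above the abdominal array. Another gave 1.09-fold for the PP2 array over the abdominal array. *Adamts20*, whose loss in mice gives a white belt of fur, had 164 on the virgin, 341 on the dorsal, 133 on the abdominal and 374 on the PP2 array. Here the dorsal and PP2 arrays stood together above the virgin and abdominal arrays, 2.55-fold and 2.80-fold above the abdominal array.

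*Adamts5* had a signal of 822 on the virgin, 1458 on the dorsal, 1295 on the abdominal and 1716 on the PP2 array. The virgin array was the lowest, 1.58-fold under the abdominal array, and the other probe sets present on all arrays gave 1.43-fold and 1.32-fold. Against the PP2 array its probe sets parted: the PP2 array was higher by 1.32-fold and 1.47-fold in 2 of them, while the other had 518 on the abdominal and 259 on the PP2 array. *Adamts8* had 45.8 on the virgin, 100.3 on the dorsal, 36.3 on the abdominal and 69.6 on the PP2 array, and it was absent on the abdominal array alone. The dorsal array was at least 2.76-fold and the PP2 array at least 1.92-fold above it. *Adamts15*, the neighbour of *Adamts8* on chromosome 9, had 219 on the virgin, 175 on the dorsal, 242 on the abdominal and 158 on the PP2 array, with no 2-fold difference from the abdominal array. *Adamts1* and *Adamts5* likewise are neighbours, on chromosome 16.

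*Adamts7* and *Adamts12* are known to cut cartilage oligomeric matrix protein. *Adamts7* had a signal of 95.2 with an absent call on the virgin, 169.9 on the dorsal, 44.3 with an absent call on the abdominal and 86.9 on the PP2 array. The dorsal array was at least 3.84-fold and the PP2 array at least 1.96-fold above the abdominal array. *Adamts12* had 258 on the virgin, 585 on the dorsal, 424 on the abdominal and 595 on the PP2 array, lowest on the virgin array and without a 2-fold difference from the abdominal array. *Adamts10*, which acts on fibrillin microfibrils, had 579 on the virgin, 449 on the dorsal, 359 on the abdominal and 187 on the PP2 array, 1.92-fold lower on the PP2 than on the abdominal array. *Adamts3*, a procollagen N-propeptidase, had 29.5 to 50.3, and the representative probe set of *Adamts6* was present on the PP2 array only, at 113. A second *Adamts6* probe set was present on the virgin array at 71.4, the dorsal array at 100.4 and the PP2 array at 39.7 and marginal on the abdominal array at 29.7, and the virgin, dorsal and PP2 arrays were at least 2.41-fold, at least 3.38-fold and at least 1.34-fold above the abdominal array.

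Of the inhibitors, *Timp4* was the one highest on the abdominal array. Its signal was 1414 on the virgin, 2142 on the dorsal, 4087 on the abdominal and 1410.1 on the PP2 array. The virgin and PP2 arrays were at one level and the abdominal array was 2.89-fold and 2.90-fold above them, and 1.91-fold above the dorsal array. The second *Timp4* probe set gave at least 4.03-fold over the virgin, 2.80-fold over the PP2 and at least 2.88-fold over the dorsal array. *Timp4* is known from heart and fat tissue, and of the 2 detected fat cell markers *Fabp4* had 31579 on the virgin, 26062 on the dorsal, 41761 on the abdominal and 21517 on the PP2 array, and *Adipoq* 434, 168, 850.5 and 239.8. Both fat cell markers were highest on the abdominal array, as *Timp4* was, as were the hair follicle markers, and their part in its level was not tested.

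*Timp1*, the inducible inhibitor, ran the other way. Its signal was 271 on the virgin, 729 on the dorsal, 198 on the abdominal and 440.0 on the PP2 array. The abdominal array was the lowest, with the dorsal array 3.69-fold, the PP2 array 2.23-fold and the virgin array 1.37-fold above it. *Timp3*, which is held in the matrix, had 7540 on the virgin, 16043 on the dorsal, 9290 on the abdominal and 9235 on the PP2 array by its representative probe set. The dorsal array was highest, 1.73-fold above the abdominal array, and another bright probe set gave 1.79-fold. The remaining *Timp3* probe sets, with signals from 208 to 1971, gave the abdominal array 1.01-fold higher and 1.07-fold lower than the dorsal array, and 2.28-fold and 2.64-fold higher than the PP2 array. *Timp2*, a partner of Mmp14 in the activation of pro-Mmp2, had 10472 on the virgin, 9287 on the dorsal, 9396 on the abdominal and 9273 on the PP2 array. By this probe set its level was close to even across the arrays, with folds of 1.01 to 1.11 against the abdominal array. Other *Timp2* probe sets present on all arrays put the abdominal array 1.35-fold, 1.67-fold and 1.78-fold above the dorsal array. Another put the dorsal array 1.13-fold above the abdominal array.

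The first comparison asked how abdominal dermis of pregnant mice differed from that of virgin mice. Among all genes tested, the abdominal array was higher in 3.41% and lower in 3.55%. Of 23 members tested, 2 were higher, *Mmp13* and *Timp4*, and 1 was lower, *Mmp16*. The median log2 ratio of the members was -0.04, beside 0.02 over all 12745 genes tested. The 10 Adamts genes had a median of -0.28, with 0 of 10 over 2-fold either way. Of the cell markers, 9 of 9 hair follicle, 1 of 8 fibroblast and 1 of 2 mammary ones were over 2-fold higher on the abdominal array, and 3 of 8 macrophage and 1 of 3 skeletal muscle ones were lower, and the part of such cells was not tested.

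The second comparison asked what differed when Src family kinases were inhibited in pregnant mice. Among all genes tested, the abdominal DMSO array was higher than the PP2 array in 4.89% and lower in 3.74%. Of 25 members, 2 were higher on the abdominal DMSO array, again *Mmp13* and *Timp4*, and 6 were lower, namely *Adamts1*, *Adamts4*, *Adamts9*, *Adamts20*, *Mmp14* and *Timp1*. The share lower was 24.0% of the members by their representative probe sets, and 5 of 24, or 20.8%, without *Mmp14*, for which no direction is drawn. Of the 7 proteoglycan-cleaving Adamts genes 4 were lower and 0 higher, and the median log2 ratio of the 12 Adamts genes was -0.71, beside 0.00 over all genes and 0.13 for the 9 Mmp genes. With arrays scaled to one median of present signals the Adamts median was -0.82 and with quantile normalization -0.87. Over all genes 633 were higher and 484 lower as deposited. These numbers became 505 and 600 under one-median scaling, and 430 and 618 under quantile normalization. Of the cell markers, 9 of 9 hair follicle, 2 of 8 keratinocyte, 2 of 5 endothelial, 1 of 5 smooth muscle and 1 of 2 fat cell ones were over 2-fold higher on the abdominal than on the PP2 array. Lower were 2 of 3 mast cell markers and 1 of 8 fibroblast markers, *Pdgfra*, a growth factor receptor, whose PP2 signal exceeded the abdominal one 2.50-fold. The median log2 ratio of the 8 fibroblast markers was 0.24, higher on the abdominal array and so the other way from *Pdgfra*. The part of such cells was not tested.

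The third comparison set abdominal against dorsal dermis of pregnant mice. Among all genes tested, the abdominal array was higher in 5.25% and lower in 4.96%. Of 24 members, 2 were higher, *Mmp3* and *Mmp13*, and 5 were lower, *Mmp16*, *Adamts7*, *Adamts8*, *Adamts20* and *Timp1*, which is 20.8%. The median log2 ratio was -0.25 for all members, 0.43 for the 9 Mmp genes and -0.46 for the 11 Adamts genes, beside 0.04 over all genes. These medians kept their sign under both other scalings, with the Mmp median at 0.51 and 0.52 and the Adamts median at -0.39 and -0.45. Of the cell markers, 9 of 9 hair follicle, 4 of 7 macrophage, 3 of 8 fibroblast, 3 of 5 smooth muscle and 1 of 2 fat cell ones were over 2-fold higher on the abdominal than on the dorsal array, and 3 of 8 keratinocyte ones were lower. Of the shorter lists, 1 of 1 T cell and 1 of 3 mammary markers were higher on the abdominal array, and 1 of 3 neutrophil and 1 of 3 mammary markers were lower. The 3′ to 5′ ratio of actin was 4.14 on the dorsal and 2.03 on the abdominal array. The part of these differences was not tested.

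**Figure D3:**
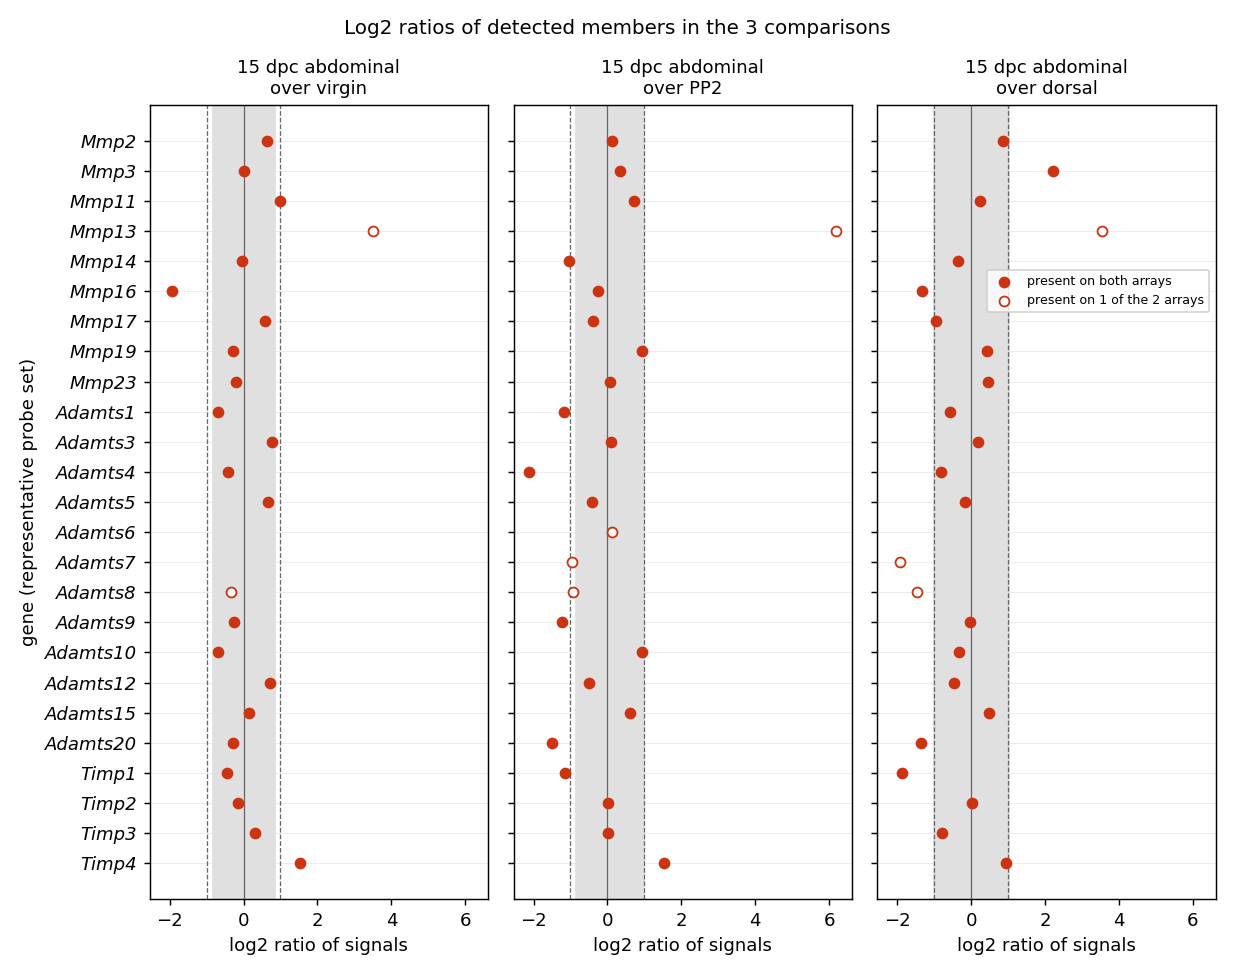
Log2 ratio of signals, abdominal DMSO array over the virgin, PP2 or dorsal array, for each detected gene by its representative probe set, with dashed lines at 2-fold, a grey band from the 5th to the 95th percentile of all genes tested, and open circles for ratios of signals where 1 of the arrays had no present call. Adamts4 lies at -2.12 in the PP2 panel and Mmp3 at 2.21 in the dorsal panel.

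Over the 21 members present on all 4 arrays, the abdominal array was the lowest of the 4 for 7 and the highest for 6, by representative probe sets. Without *Mmp14*, it was the lowest for 6 and the highest for 6 of 20. In all 11087 such genes it was the lowest in 18.7% and the highest in 21.3%. The PP2 array was the highest for 7 members, *Mmp14* and 6 Adamts genes (*Adamts1*, *Adamts4*, *Adamts5*, *Adamts9*, *Adamts12* and *Adamts20*), beside 31.6% of all genes. Without *Mmp14* these were 6 of 20 members, or 30.0%, a share near that of all genes, and 1 probe set of *Adamts5* also went the other way. *Mmp2*, *Mmp3*, *Mmp11*, *Adamts3*, *Adamts15* and *Timp4* were highest on the abdominal array, though for *Mmp2*, *Mmp3* and *Adamts3* the next array lay at most 1.09-fold under it.

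Several probe sets of 1 gene give a check on these ratios within the same arrays. Among members with several probe sets present on both arrays, the log2 ratios spread over more than 1 in 0 of 9 genes against the virgin array, in 6 of 10 against the PP2 array and in 1 of 9 against the dorsal array. Over all such genes the shares were 11.9%, 18.2% and 16.7%. The median spread of members was 0.36, 1.13 and 0.38, beside 0.42, 0.48 and 0.48 over all genes. The 6 genes against the PP2 array were *Mmp14*, *Adamts4*, *Adamts5*, *Adamts9*, *Timp2* and *Timp3*, and the 1 gene against the dorsal array was *Timp2*. In *Timp2* the spread against the PP2 array came from a dim probe set. It had 298 on the virgin, 246 on the dorsal, 437 on the abdominal and 87.6 on the PP2 array. For 4 brighter ones the abdominal and PP2 arrays were within 1.45-fold. *Mmp14* was 1 of 2 genes among 5312 with probe sets over 2-fold apart in both directions in the comparison with the PP2 array. The Gapdh 3′ to 5′ ratio differed most between the same arrays, 5.84 on the PP2 and 1.41 on the abdominal array. That of actin was 2.70 and 2.03 there, beside 2.64 on the virgin and 4.14 on the dorsal array, and their part in these spreads was not tested.

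**Figure D4:**
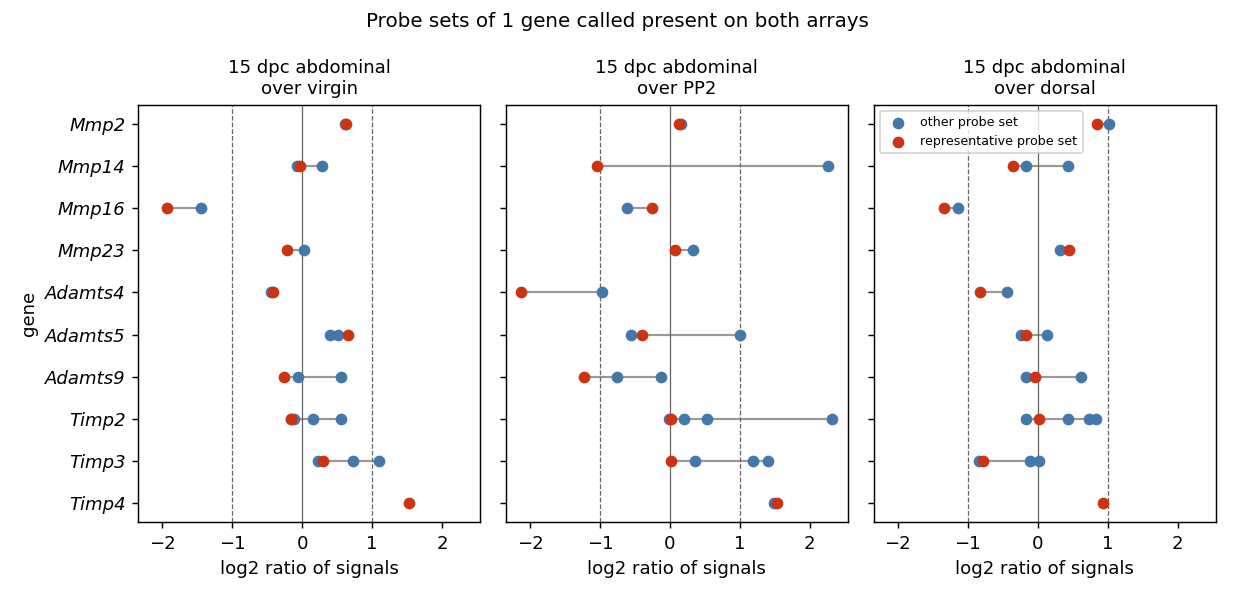
Log2 ratios of single probe sets present on both arrays for 10 members, with the representative probe set in red, the others in blue, a line spanning each gene and dashed lines at 2-fold. In the PP2 panel the Mmp14 probe sets lie at -1.05 and 2.25, and those of Mmp2 lie side by side.

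The proteins that activate, bind or clear these proteases were mostly even. Of 17 such genes 11 were detected, and the abdominal array was over 2-fold higher than the virgin array for 1 of them, than the PP2 array for 1 and than the dorsal array for 2, with 0 lower in each. *Plau*, the urokinase that makes plasmin from plasminogen, was the one higher in all 3. Its signal was 160.0 on the virgin, 157 on the dorsal, 321 on the abdominal and 89.2 on the PP2 array, just over 2-fold above the virgin, 2.04-fold above the dorsal and 3.59-fold above the PP2 array. *Thbs2*, whose protein binds Mmp2 for uptake, had 2254 on the virgin, 1223 on the dorsal, 3691 on the abdominal and 1924 on the PP2 array, 3.02-fold above the dorsal array. *Reck*, a membrane inhibitor of Mmps, stayed between 2301 and 3139, and *Lrp1*, the uptake receptor, between 1576 and 2537.

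Of 6 genes of Adamts-like proteins and papilin, which resemble Adamts proteases without the protease domain, 5 were detected. *Adamtsl2* was present on the virgin array alone, at 494, at least 4.58-fold above the 108 of the abdominal array. No other gene of this list passed 2-fold against the abdominal array.

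Among substrates 11 of 14 genes were detected, with 1 higher and 0 lower on the abdominal than on the virgin array, 1 higher and 2 lower against the PP2 array, and 3 higher and 1 lower against the dorsal array. *Vcan*, versican, had 1024 on the virgin, 583 on the dorsal, 598 on the abdominal and 1292 on the PP2 array, 2.16-fold higher on the PP2 than on the abdominal array. *Bcan*, brevican, had 423 on the virgin, 2799 on the dorsal, 314 on the abdominal and 1123 on the PP2 array, 8.91-fold higher on the dorsal and 3.58-fold higher on the PP2 than on the abdominal array. These are substrates of Adamts4 and its relatives, and 4 genes of that group were also lower on the abdominal than on the PP2 array. *Acan*, on the same substrate list, was present on no array. Each substrate was read by 1 probe set, and a relation between substrates and proteases was not tested. *Col1a1*, a chain of the collagen that collagenases cut, had 4844 on the virgin, 3344 on the dorsal, 11530 on the abdominal and 6630 on the PP2 array, highest on the abdominal array. The other chain of that collagen, *Col1a2*, was nearly even between the abdominal and virgin arrays at 25489 and 25696, with 22238 on the dorsal and 19808 on the PP2 array, and *Col3a1* stayed between 22191 and 30307. *Fn1*, fibronectin, a substrate of Mmp3, had 3743 on the virgin, 933 on the dorsal, 3720 on the abdominal and 4069 on the PP2 array, low on the dorsal array as *Mmp3* was.

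Of 10 genes of known inducers, cytokines and transcription factors, 8 were detected, and *Il1a* and *Tnf* were present on no array. *Fos* had 29700 on the virgin, 33745 on the dorsal, 23394 on the abdominal and 16605 on the PP2 array, and *Jun* 22427, 27231, 17474 and 13058. Both AP-1 genes were bright on all 4 arrays and lowest on the PP2 array, within 2-fold of the abdominal array. *Junb* had 8247 on the virgin, 5824 on the dorsal, 3646 on the abdominal and 2229 on the PP2 array, 2.26-fold higher on the virgin than on the abdominal array. *Fosl1* was present on the dorsal array at 357 and on the PP2 array at 250.4 and absent on the other two, at least 4.36-fold and at least 3.06-fold above the abdominal array. *Ets1*, an Ets factor, was 2.04-fold higher on the abdominal than on the dorsal array.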

How the data were processed

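Dermal RNA of 4 conditions was measured on 1 array each, and conditions were taken from the sample labels. The authors deposited, for each probe set, a MAS5 signal (a linear intensity, scaled on each array to a common trimmed mean) and a detection call. The submitters' processing notes name Affymetrix Expression Console, version 1. The table of all arrays held the same signals, with 0 differing. Such scaling assumes that most genes are even between arrays. Depth does not apply to arrays, and their number limits the precision.

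Genes were named from the platform annotation by probe sets with a single symbol (34958 of 45101), and the 37 member symbols were matched to RefSeq by Entrez identifier. The deposited files name no genome build, and GRCm38.p6 was used for promoter sequences and gene order only. The window of *Adamts19* was not used here. Ratios were computed with Python 3.11.15, numpy 2.4.6 and pandas 2.3.3, without offset, and counted at 2-fold as in the study's own criterion. The counting was tested on simulated data in which every probe set was present on every array and all probe sets of a gene were changed by the same fold. The detection rule and disagreement between probe sets were therefore not tested there. Named members were those over 2-fold apart in a comparison, the 12 brightest, and those whose probe sets opposed each other, with the rest given by range or briefly.

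The members, the pathway and marker lists and the rules were chosen with earlier results of these data known. Alternatives were no detection filter, marginal calls as detection, other scalings, other choices of probe set, an offset of 50, and folds of 1.5 and 3.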

Additional observations from a re-analysis of the deposited data

How the results depend on the processing

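No paired analysis was possible because each condition had 1 array, and for the same reason no array could be left out within a condition. For no detection filter, marginal calls, the offset, other folds and other choices of probe set, the share over all genes was not computed. The counts of members under these alternatives therefore have no share of all genes to be read against. Without a detection filter, the count of members higher on the abdominal array was 5 against the virgin, 5 against the PP2 and 7 against the dorsal array, and 5 were lower against the virgin array, where the median log2 ratio became -0.16. An offset of 50 left 1 member higher in each comparison and removed *Mmp13* from all 3, and it ended the lower calls of *Timp1* against the PP2 array (log2 ratio -0.98) and of *Adamts8* against the dorsal array (-0.80). At 1.5-fold, 8 members were higher and 3 lower against the virgin array, 6 were higher against the PP2 array, and against the dorsal array 4 were higher and 8 lower. At 3-fold, 1 was higher against the virgin array, against the PP2 array 1 was higher and 1 lower, and 2 were lower against the dorsal array. With the median of all detected probe sets, 3 were lower against the virgin array, 4 were higher against the PP2 array with a median log2 ratio of 0.13, and *Mmp14* turned from -1.05 to 1.41 there, while *Adamts9* at -0.76 was no longer lower, which left 4 lower. Leaving out *Mmp14*, chosen after seeing the data, left 5 lower and 2 higher against the PP2 array. With any probe set, 3 were lower against the virgin array, 6 higher against the PP2 array and 4 higher against the dorsal array. Scaling to one median turned the members' median to 0.0043 against the virgin and to -0.10 against the PP2 array, and quantile normalization turned the latter to -0.22. One-median scaling moved the median of all genes from 0.00 to -0.11 against the PP2 array. Both scalings added *Adamts7* and *Adamts8* to the members lower against the PP2 array, 8 in all, and *Mmp11* to those higher against the virgin array, 3 in all. The cause of these changes was not tested. The counts with marginal calls as detection, and with the values of the table of all arrays, were those of the report. Dim signals limit *Mmp13*, *Adamts7* and *Adamts8*, whose folds are bounds.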
